A study of Homo sapiens with 12 samples.

Results

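Genes of the nuclear lamina and of the LINC complex, which links the nucleus to the cytoskeleton, were followed in SK-N-SH cells, a human neuroblastoma cell line, grown on substrates of 1, 8 or 30 kPa. The 10 genes were taken by symbol from a list, out of 60664 genes in the deposited count table. They were the lamin genes LMNA, LMNB1 and LMNB2, the inner nuclear membrane genes LBR, EMD and TMPO, the SUN-domain genes SUN1 and SUN2, and the nesprin genes SYNE1 and SYNE2. All 10 passed the filter on low counts, which kept 17960 genes. RNA was sequenced from 4 libraries at each stiffness, and a lower value in kilopascals (kPa) means a softer surface. The labels name no other treatment, and they give neither the material of the substrates nor the time spent on them. The series asks how substrate stiffness changes gene expression in neuroblastoma cells.

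Lamins are intermediate filament proteins that line the inner face of the nuclear envelope. LMNA encodes the A-type lamins A and C, made from the same gene by alternative splicing, while LMNB1 and LMNB2 encode the B-type lamins, which stay attached to the membrane by a farnesyl group. The A-type lamins give the nucleus much of its stiffness, and across tissues their amount relative to B-type lamins is known to be higher in stiff tissues. SUN proteins span the inner nuclear membrane and bind the KASH domains of nesprins in the space between the membranes, so that forces on actin, microtubules and intermediate filaments reach the lamina. Counts per gene do not separate lamin A from lamin C, the isoforms of TMPO, or giant nesprins from short ones, and they measure RNA, not protein.

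Library totals spanned 1.43e+07 to 1.59e+07 counts on 1 kPa, 1.50e+07 to 2.53e+07 on 8 kPa, and 2.39e+07 to 2.78e+07 on 30 kPa. The 4 libraries on 1 kPa and 8 kPa replicate 1 were shallow and the other 7 were deep, so depth and stiffness cannot be told apart between 1 and 30 kPa. The cells carried RNA of both known neuroblastoma states, with the adrenergic factor HAND2 at 197 to 391 CPM and the mesenchymal factor PRRX1 at 1371 to 1841 CPM. CPM is the count as a share of the scaled library, times 1e+06. The adrenergic enzyme gene TH was at most 0.0358 CPM in any library. Immune markers summed to 0.547 to 1.10 CPM per library, with TYROBP at 0 in all 12. Fibroblast markers were high, at 2126 to 2718 CPM summed per library, with the collagen genes COL1A1 at 523 to 851 CPM and COL3A1 at 555 to 977 CPM. Epithelial markers summed to 48.9 to 74.9 CPM and endothelial markers to 14.7 to 24.2 CPM. In bulk RNA a change in the number of cells of a kind and a change in RNA per cell cannot be told apart.

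Promoter windows from RefSeq (GRCh38.p14) were found for 9 of the 10 genes, in 20 windows, and the 250 bases before each start site were searched on both strands. The letters CCAAT, the box bound by NF-Y, stood in 8 of the 20 windows, against 32.0% of 34943 windows of all genes. Of these windows 2 belong to TMPO, overlap each other and hold the same matches. The letters TTTGAA, the cell cycle homology region (CHR) of many mitotic genes, stood upstream of LMNB2 and SUN2 (13.4% of all windows), and the E2F core GCGGGAA upstream of LMNA (5.51%). The TEAD core GGAATG was found for SYNE1 (11.9%), and the AP-1 element TGACTCA for LBR and SUN2 (4.22%). CCAAT also stood upstream of SYNE1, SYNE2, EMD and SUN2, none of which was called higher on 8 kPa, so the motif was not particular to the genes that rose. The stretches below, each on the strand of its gene, are shown only for LMNA and for the 3 genes that were higher on 8 kPa. Capitals mark the motif, which in LMNB1 is CCAAT read on the opposite strand. The windows of LMNB1, LMNB2 and TMPO hold annotated exons of the same gene, and that of TMPO also of TMPO-AS1, while the LMNA window holds none. A match is a description of the letters and not a mapped binding site.
LMNA, chr1:156082415-156082444, plus strand: gctcagtggcccCCAATagagcccagcccc
LMNB1, chr5:126776986-126777015, plus strand: tgcctgctccccATTGGcccatggtagtca
TMPO, chr12:98515514-98515543, plus strand: cgagccgtctcgCCAATcaccgccgcgctt
TMPO, chr12:98515543-98515572, plus strand: tcctcccgtcgcccgCCAATggcggcgcgc
LMNB2, chr19:2457180-2457209, minus strand: gttcTTTGAAcacgttttgaggttctctaa

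Levels per kilobase use the union of all annotated exons of a gene. This may be longer than the transcripts the cells used, so the order is approximate. Per kilobase of exon, LMNA stood far above the rest, at 86.5 ± 17.6 CPM per kb (SD, n = 12 libraries). SUN1 followed at 22.8, then LMNB2 at 17.7 and LMNB1 at 17.4, EMD at 13.6, TMPO at 12.4, LBR at 11.4, SYNE1 at 7.07, SYNE2 at 4.10 and SUN2 at 2.17 CPM per kb. LMNA exceeded SUN1 in all 12 libraries, while LMNB2 exceeded LMNB1 in 7 of 12, so the order of the 2 B-type lamins was not resolved. EMD exceeded TMPO, and TMPO exceeded LBR, in 9 of 12 libraries each. The 10 genes are protein coding, and their counts ran from 175 in the poorest library for SUN2 to 17062 in the richest for LMNA.

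Between 1 and 30 kPa LMNA fell to 0.700 of its level, while LMNB2 rose 1.32-fold. Between 1 and 8 kPa LMNB1 rose 1.28-fold and LMNB2 1.34-fold. TMPO rose 1.31-fold and SUN1 fell to 0.826 of its level on 8 kPa. No gene of the 10 passed between 8 and 30 kPa.

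**Figure D1:**
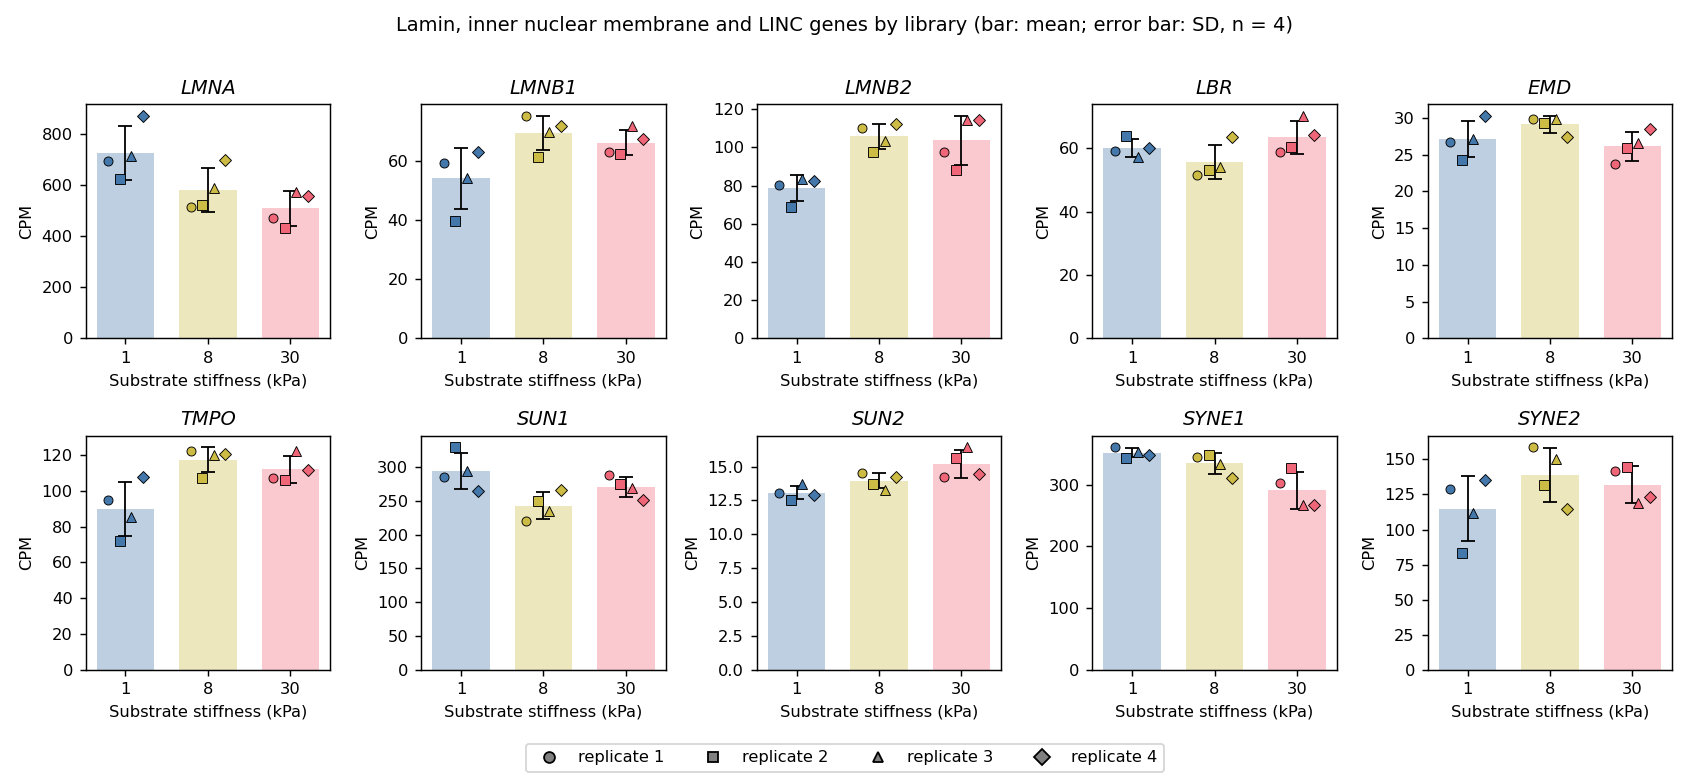
CPM of the 10 genes (vertical axes, starting at 0) at 1, 8 and 30 kPa (horizontal axes), with 1 point per library, its shape giving the replicate number, bars for means and error bars for SD (n = 4). LMNA means step down from 725 to 508 CPM from 1 to 30 kPa, and LMNB2 points at 8 and 30 kPa all lie above those on 1 kPa.

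LMNA (ENSG00000160789, GRCh38 chromosome 1, 156082573 to 156140089, plus strand) was at 694, 622, 714 and 870.4 CPM in replicates 1 to 4 on 1 kPa. At 8 kPa it was at 513, 519, 587 and 698 CPM, and on 30 kPa at 469.9, 432, 573 and 556 CPM. Each 30 kPa library was below each 1 kPa library, while 8 kPa replicate 4 lay inside the 1 kPa range. The log2 fold change was -0.51 (SE 0.123, adjusted p = 0.0448, edgeR's quasi-likelihood test) from 1 to 30 kPa. It was -0.32 (adjusted p = 0.0917) from 1 to 8 kPa and -0.19 (adjusted p = 0.428) from 8 to 30 kPa. The call at 30 against 1 kPa sat close to the threshold. Of 12 fits that each omitted 1 library, 9 lost it (without 1 kPa replicate 1, 3 or 4, 8 kPa replicate 2 or 3, or any 30 kPa replicate; highest adjusted p 0.0998). The call was also lost with library size alone as the scaling (adjusted p = 0.0679).

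LMNB1 (ENSG00000113368, chromosome 5, 126776623 to 126837020, plus strand) was at 59.4, 39.7, 54.3 and 63.1 CPM on 1 kPa. It was at 75.1, 61.4, 70.002 and 71.7 CPM on 8 kPa and at 63.1, 62.6, 71.9 and 67.6 CPM on 30 kPa. The groups overlapped, because 1 kPa replicate 4 exceeded the lowest library of both stiffer groups, and 1 kPa replicate 2 was the lowest of all 12. The log2 fold change was 0.36 (SE 0.112, adjusted p = 0.0464) from 1 to 8 kPa and 0.29 (adjusted p = 0.173) from 1 to 30 kPa. The call on 8 kPa was absent from 10 of the 12 fits with 1 library omitted (all but those without 1 kPa replicate 4 or 8 kPa replicate 2), at adjusted p up to 0.132.

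LMNB2 (ENSG00000176619, chromosome 19, 2427638 to 2456996, minus strand) was at 80.2, 68.5, 83.4 and 82.3 CPM on 1 kPa. At 8 kPa it was at 110.3, 97.6, 103 and 112 CPM, and on 30 kPa at 97.4, 88.1, 114 and 114 CPM. Every library of the 2 stiffer groups was above every library on 1 kPa. From 1 to 30 kPa the log2 fold change was 0.40 (SE 0.0876, adjusted p = 0.0326), a call absent from 7 of those fits (without 1 kPa replicates 1, 2 or 3, 8 kPa replicate 3, or 30 kPa replicates 1, 3 or 4; highest adjusted p 0.119). The 1 to 8 kPa change of 0.43 (SE 0.0878, adjusted p = 0.0115) kept its call in all 12 such fits (highest adjusted p 0.0421). LMNB2 shares 257 exon bases, 4.73% of its own, with TIMM13 on the same strand, so a small part of its reads may be assigned with uncertainty.

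**Figure D2:**
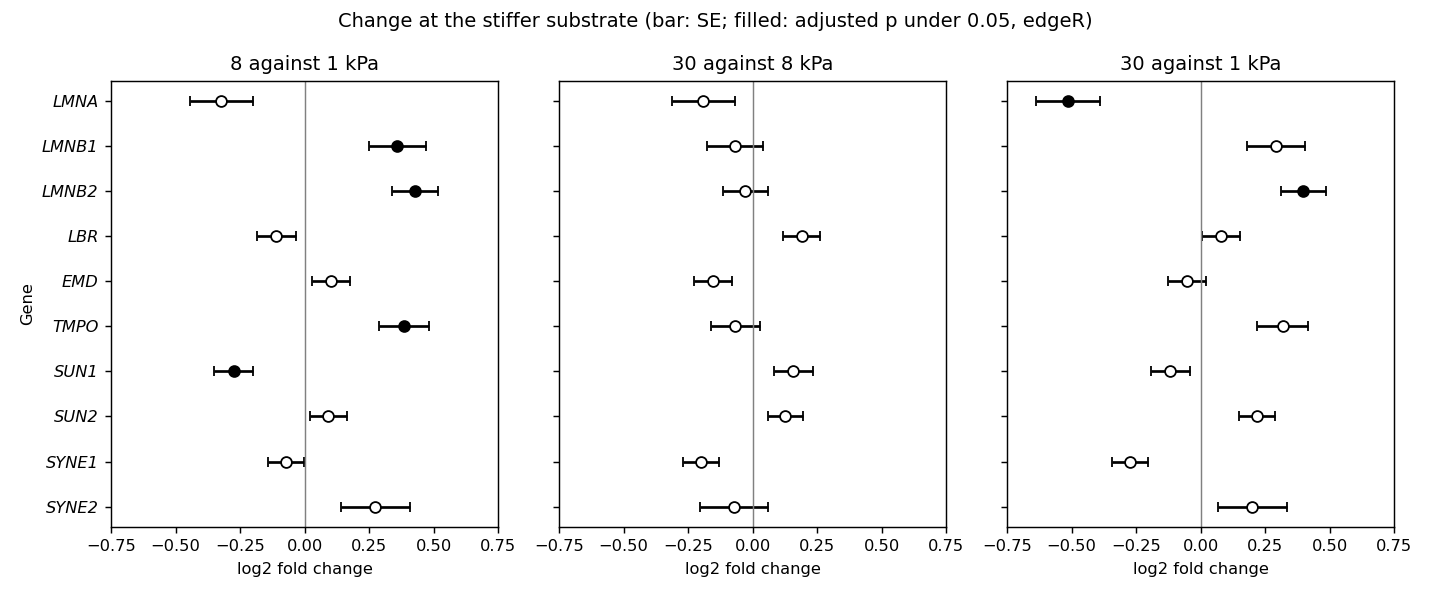
Log2 fold change of each gene at the stiffer against the softer substrate (horizontal axes; error bars are SE), in 3 panels for 8 against 1, 30 against 8 and 30 against 1 kPa, with filled points for adjusted p under 0.05. LMNB1, LMNB2, TMPO and SUN1 are filled at 8 against 1 kPa, LMNA and LMNB2 at 30 against 1 kPa, and none at 30 against 8 kPa.

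Of the 10 genes, 3 rose and 1 fell between 1 and 8 kPa, while 13.8% of all tested genes were called (8.17% higher and 5.60% lower). Between 1 and 30 kPa 1 rose and 1 fell, against 2.43% of all tested genes (1.10% higher and 1.33% lower). With counts this small, the share of 10 genes is coarse. Between 8 and 30 kPa edgeR called 0 of the 10 and 0% of all genes, with 2 of the 10 at an unadjusted p under 0.05 (LBR and SYNE1) against 17.9% of all genes. DESeq2 also called 0 of the 10 there, where it called 430 of all genes (2.39%), and limma-voom called 0 of the 10. Libraries of the groups did not overlap for 1 of the 10 genes at 8 against 1 kPa (16.8% of all genes), for 0 at 30 against 8 kPa (11.3%) and for 4 at 30 against 1 kPa (11.4%). Across all 3 stiffnesses at once LMNA, LMNB2, TMPO and SYNE1 were called (adjusted p = 0.0409, 0.0201, 0.0440 and 0.0472), against 9.16% of all genes. That count of 4 rested on single libraries. It was 0 when 1 kPa replicate 1 or 8 kPa replicate 3 was omitted, and 1 or 2 for 1 kPa replicate 2 or 3, 8 kPa replicate 1 or 2, or any 30 kPa library. It was 5 for 1 kPa replicate 4 and 6 for 8 kPa replicate 4. Calls among all tested genes, 1646 with no library omitted, moved the same way. They were fewer wherever under 4 of the 10 passed, and more where 5 or 6 did. The shift was thus not particular to the 10 genes. The comparisons of 8 and of 30 kPa with 1 kPa share the 1 kPa libraries. The median log2 fold change of the 10 genes was 0.10 at 8 against 1 kPa, -0.07 at 30 against 8 kPa and 0.14 at 30 against 1 kPa, where those of all tested genes were -0.01, 0.0037 and 2.06e-05.

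The ratio of A-type to B-type lamin RNA within each library separated 1 kPa from both stiffer groups. LMNA to LMNB1, as a ratio of CPM, was 11.7, 15.7, 13.1 and 13.8 in replicates 1 to 4 on 1 kPa. It was 6.83, 8.46, 8.39 and 9.73 on 8 kPa and 7.45, 6.91, 7.96 and 8.23 on 30 kPa. All 8 libraries on the stiffer substrates were below all 4 on 1 kPa, and those at 8 and 30 kPa overlapped. At 8 against 1 kPa the log2 difference was -0.70 (SE 0.137; exact permutation test, two-sided p = 0.0286, adjusted p = 0.0476 over 15 ratio tests). At 30 against 1 kPa the log2 difference was -0.82 (SE 0.104; the same exact p and adjusted p), and at 30 against 8 kPa -0.12 (exact p = 0.343). With 4 libraries against 4, 0.0286 is the smallest exact p that the 70 splits allow. Every ratio at that floor has the same adjusted p of 0.0476. Its size depends on how many of the 15 tests, several of which share LMNA, reached the floor. It is therefore not separate support for each ratio.

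LMNA to LMNB2 was 8.65, 9.08, 8.56 and 10.6 on 1 kPa, 4.66, 5.32, 5.69 and 6.24 on 8 kPa, and 4.82, 4.91, 5.00 and 4.86 on 30 kPa. The 1 kPa libraries stood clear of the other 8. The log2 differences were -0.75 (SE 0.113) at 8 against 1 kPa and -0.91 (SE 0.0713) at 30 against 1 kPa, each with an exact p = 0.0286 (adjusted p = 0.0476), and -0.15 (exact p = 0.143) at 30 against 8 kPa. At 30 kPa the ratio varied little, with a mean of 4.90 ± 0.0769 (SD, n = 4), although LMNA itself ran from 432 to 573 CPM there. The 30 kPa libraries higher in LMNA were replicates 3 and 4, which were also the higher ones in LMNB2. Over the deviations from the group means in all 12 libraries, Pearson's r of LMNA with LMNB2 was 0.757, while without removing the group means it was -0.334. These are descriptions of libraries that share their scaling.

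Against the sum of both B-type genes, LMNA stood at 5.47 ± 0.475 on 1 kPa, 3.31 ± 0.425 on 8 kPa and 2.98 ± 0.0987 on 30 kPa (SD, n = 4 each). Per kilobase of the exon union, an approximate scale between genes, LMNA was 7.06 times LMNB1 on 1 kPa, 4.35 times on 8 kPa and 3.97 times on 30 kPa. The same per-kilobase ratios to LMNB2 were 7.17, 4.26 and 3.81. In 8 kPa replicate 1, the library as shallow as those on 1 kPa, the ratios of CPM to LMNB1 and LMNB2 were 6.83 and 4.66, the lowest on 8 kPa and below all 4 of the 1 kPa libraries. A ratio within a library does not depend on how libraries were scaled to each other.

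**Figure D3:**
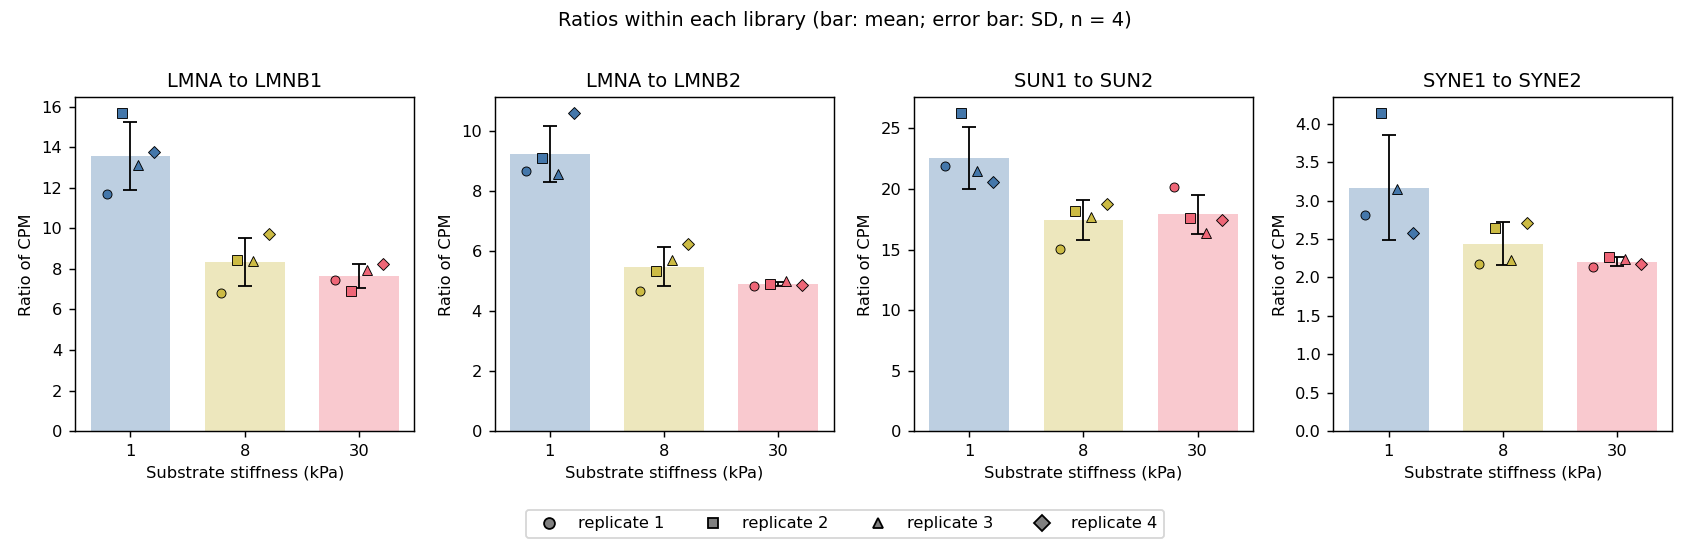
Ratios of CPM within each library (vertical axes, starting at 0) by stiffness, for LMNA to LMNB1, LMNA to LMNB2, SUN1 to SUN2 and SYNE1 to SYNE2, with 1 point per library, bars for means and error bars for SD (n = 4). Mean LMNA to LMNB1 goes from 13.6 on 1 kPa to 8.35 on 8 kPa and 7.64 on 30 kPa, with no overlap between the 1 kPa libraries and the others.

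Of the 3 inner nuclear membrane genes, TMPO alone passed edgeR's test with adjustment. TMPO (ENSG00000120802, chromosome 12, 98515512 to 98550379, plus strand) encodes the LAP2 proteins, of which the membrane-bound forms bind B-type lamins and the soluble alpha form binds A-type lamins. It was at 94.7, 71.8, 85.1 and 108 CPM on 1 kPa, at 122, 107, 119.7 and 120.4 CPM on 8 kPa and at 107, 106, 122 and 112 CPM on 30 kPa. The lowest libraries at 8 and 30 kPa fell just inside the 1 kPa range, whose top was replicate 4. The log2 fold change was 0.38 (SE 0.0972, adjusted p = 0.0223) from 1 to 8 kPa, and omitting 1 kPa replicate 3, or replicate 1 or 3 of 8 kPa, ended the call (adjusted p up to 0.0698). From 1 to 30 kPa it was 0.32 (adjusted p = 0.0955). TMPO-AS1 on the opposite strand shares 713 exon bases, 8.30% of those of TMPO, and summed to 898 counts over the 12 libraries against 27250 for TMPO.

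LBR (ENSG00000143815, chromosome 1, 225401502 to 225428925, minus strand) encodes the lamin B receptor, which tethers heterochromatin to B-type lamins and also has sterol reductase activity. Its means were 60.1 ± 2.91 CPM on 1 kPa, 55.6 ± 5.41 CPM on 8 kPa and 63.5 ± 5.14 CPM on 30 kPa (SD, n = 4 each), with overlapping libraries throughout. The log2 fold changes were -0.11 from 1 to 8 kPa (adjusted p = 0.330) and 0.19 from 8 to 30 kPa (adjusted p = 0.209). Without 8 kPa replicate 4, the highest of its group at 63.6 CPM, the 8 to 30 kPa value was 0.26 (adjusted p = 0.0359). EMD (ENSG00000102119, chromosome X, 154379197 to 154381523, plus strand) encodes emerin, a LEM-domain protein that binds lamin A. It lay between 23.7 and 30.3 CPM in all 12 libraries, and its largest log2 fold change was -0.15, from 8 to 30 kPa (adjusted p = 0.282).

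SUN1 (ENSG00000164828, chromosome 7, 816615 to 896435, plus strand), which also binds prelamin A, was at 286, 329.7, 295 and 265 CPM on 1 kPa. It was at 219.7, 249, 235 and 267 CPM on 8 kPa and at 288, 275, 269 and 252 CPM on 30 kPa. At 8 kPa only replicate 4 reached into the 1 kPa range. The log2 fold change was -0.28 (SE 0.0756, adjusted p = 0.0298) from 1 to 8 kPa, a call lost without 1 kPa replicate 1, 2 or 3 or 8 kPa replicate 1 or 3 (highest adjusted p 0.0932). It was -0.12 (adjusted p = 0.427) from 1 to 30 kPa. SUN1 shares 1842 exon bases, 15.6% of its own, with GET4 on the same strand, which summed to 1713 counts against 66871 for SUN1.

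SUN2 (ENSG00000100242, chromosome 22, 38734725 to 38794143, minus strand) was the least abundant of the 10. It was at 13.1, 12.6, 13.7 and 12.9 CPM on 1 kPa, at 14.6, 13.7, 13.3 and 14.2 CPM on 8 kPa and at 14.3, 15.6, 16.4 and 14.5 CPM on 30 kPa. Each 30 kPa library was above each 1 kPa library, but the log2 fold change of 0.22 did not pass (SE 0.0706, adjusted p = 0.114). GTPBP1 on the opposite strand shares 680 exon bases, 10.5% of those of SUN2, and had 5277 counts over the 12 libraries against 3568 for SUN2. With no strand setting given, reads in that overlap cannot be told apart, so values of SUN2 are uncertain.

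The ratio of SUN1 to SUN2 was 21.9, 26.3, 21.5 and 20.5 on 1 kPa, 15.1, 18.2, 17.7 and 18.8 on 8 kPa, and 20.2, 17.6, 16.4 and 17.4 on 30 kPa. All stiffer libraries were below all on 1 kPa, though 30 kPa replicate 1 came close to 1 kPa replicate 4. The log2 differences from 1 kPa were -0.37 (SE 0.105) on 8 kPa and -0.33 (SE 0.1003) on 30 kPa, each with an exact p = 0.0286 (adjusted p = 0.0476). Between 8 and 30 kPa the difference was 0.04 (exact p = 0.714). The overlaps of SUN1 and SUN2 with other genes carry over to this ratio, so its values are uncertain as well.

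SYNE1 (ENSG00000131018, chromosome 6, 152121684 to 152637801, minus strand) encodes nesprin-1, whose giant form binds actin. It was at 361, 344, 353 and 349 CPM on 1 kPa, at 345, 349, 334 and 311 CPM on 8 kPa and at 303, 328, 266 and 267 CPM on 30 kPa. All 30 kPa libraries lay below all 1 kPa libraries, whose SD was only 7.21 CPM. The log2 fold change of -0.27 from 1 to 30 kPa did not pass (SE 0.0690, adjusted p = 0.0525), while the test across the 3 stiffnesses did, close to the threshold (adjusted p = 0.0472). SYNE1 was called at 30 against 1 kPa by DESeq2 (adjusted p = 0.00579) and limma-voom (adjusted p = 0.046), and in 5 of 10 alternative settings in all. edgeR did not call it with a length offset (adjusted p = 0.0699), library size alone (0.0769) or only the pair's 8 libraries (0.0773). Nor was it called with depth class as a term. With 1 library omitted it was called in 2 of 12 fits.

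SYNE2 (ENSG00000054654, chromosome 14, 63852983 to 64226433, plus strand) encodes nesprin-2, the other giant actin-binding nesprin, and had the widest spread of the 10 on 1 kPa, with a coefficient of variation of 20.2%. It was at 129, 83.3, 112 and 135 CPM on 1 kPa, at 159, 132, 149.97 and 115 CPM on 8 kPa and at 142, 145, 119 and 123 CPM on 30 kPa. The groups overlapped in every comparison, and the log2 fold change from 1 to 8 kPa was 0.27 (adjusted p = 0.181). The ratio of SYNE1 to SYNE2 was 3.17 ± 0.687 on 1 kPa, 2.44 ± 0.278 on 8 kPa and 2.21 ± 0.0594 on 30 kPa (SD, n = 4 each). At 30 kPa the 4 libraries ran from 2.14 to 2.26 and lay below those on 1 kPa (log2 difference -0.50, SE 0.150; exact p = 0.0286, adjusted p = 0.0476). At 8 against 1 kPa the libraries overlapped (log2 difference -0.36, exact p = 0.0857, adjusted p = 0.129).

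Other genes of the nuclear envelope were read from lists beside the 10. Of 19 further lamina and inner nuclear membrane partners, 1 rose and 2 fell at 8 against 1 kPa, with a median log2 fold change of -0.10, beside the 13.8% of all tested genes called there, and 0 passed edgeR in either other comparison (3 and 1 at an unadjusted p under 0.05 for 30 against 8 and 30 against 1 kPa, and 0 and 1 with DESeq2). BANF1, a chromatin bridging factor bound by LEM-domain proteins, rose by 0.30 (adjusted p = 0.0117). LEMD2, an inner membrane LEM-domain protein, fell by 0.26 (adjusted p = 0.0222), and ANKLE2, which acts on BANF1 at the end of mitosis, by 0.27 (adjusted p = 0.0281). With 1 library omitted the number that fell was 0 (without 1 kPa replicate 2 or 8 kPa replicate 1 or 3) to 4 (without 1 kPa replicate 4), and 1 or 2 rose. Of the 5 enzymes that process prelamin A, including the protease ZMPSTE24, 0 passed edgeR or DESeq2 in any comparison, with 1 at an unadjusted p under 0.05, at 8 against 1 kPa. FNTA, the farnesyltransferase alpha subunit, had a log2 fold change of -0.11 at 8 against 1 kPa.

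Of 17 tested genes among other LINC components and their cytoskeletal partners, SYNE3 alone passed edgeR's test. It was lower at 8 and at 30 against 1 kPa, where edgeR called 5.60% and 1.33% of all tested genes lower. With 1 gene of 17, the list cannot be set apart from that background. DESeq2 called 4 of the 17 at 8 against 1 kPa, but it also called more of all tested genes there than edgeR. That count can therefore not be read as particular to this list. SYNE3 encodes nesprin-3, which binds plectin, and went from 34.6 ± 2.84 CPM on 1 kPa to 27.7 ± 3.09 CPM on 8 kPa (log2 fold change -0.32, adjusted p = 0.0305) and 26.5 ± 2.16 CPM on 30 kPa (-0.38, adjusted p = 0.0408; SD, n = 4 each). The SYNE3 call at 30 against 1 kPa was lost in 9 of the 12 fits with 1 library omitted (1 kPa replicate 1, 3 or 4, 8 kPa replicate 1 or 3, or any of the 30 kPa libraries). At 8 against 1 kPa 0 genes of this list fell without 1 kPa replicate 1 or 8 kPa replicate 1 or 3, and 5 without 8 kPa replicate 4. The plectin gene PLEC stood at 424 ± 22.5 CPM on 1 kPa and 352 ± 55.4 CPM on 8 kPa (log2 fold change -0.27) without passing. Of 29 nuclear pore subunits 6 rose and 0 fell at 8 against 1 kPa, with a median of 0.05, and 1 rose at 30 against 1 kPa. Of all tested genes 8.17% and 1.10% rose in these comparisons. NUP93, a scaffold subunit, rose by 0.26 (adjusted p = 0.0151) on 8 kPa, and NDC1, which anchors pores in the membrane, by 0.24 (adjusted p = 0.0290) at 30 against 1 kPa. Omitting 8 kPa replicate 3 left 0 of the 6, omitting 1 kPa replicate 2 or 8 kPa replicate 1 left a count of 1, and omitting 1 kPa replicate 3 a count of 2. The single call at 30 against 1 kPa was lost when 1 kPa replicate 3 or any 30 kPa library was omitted. At 30 against 8 kPa 0 LINC partners and 0 pore subunits passed edgeR or DESeq2, with 0 and 2 at an unadjusted p under 0.05.

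LMNB1, LMNB2 and TMPO varied with cell cycle genes across the libraries. Of 23 tested G2/M genes 18 rose and 0 fell at 8 against 1 kPa (median log2 fold change 0.45), and 14 rose and 0 fell at 30 against 1 kPa (median 0.47). Of 23 DNA replication genes 13 rose and 0 fell (median 0.34), and 4 rose and 0 fell (median 0.29). The shares of all tested genes that rose were 8.17% at 8 against 1 kPa and 1.10% at 30 against 1 kPa. These counts moved with single libraries, as did the calls among all tested genes in the same fits. The G2/M counts were 10 to 19 at 8 against 1 kPa (10 without 8 kPa replicate 3) and 2 to 18 at 30 against 1 kPa (2 when 30 kPa replicate 3 was omitted, 4 for 1 kPa replicate 3 or 30 kPa replicate 4, and 6 for 1 kPa replicate 1). The replication counts were 5 to 19 at 8 against 1 kPa (5 when 8 kPa replicate 3 was omitted, 6 for 1 kPa replicate 3 or 8 kPa replicate 1, and 7 for 1 kPa replicate 2). They were 0 to 10 at 30 against 1 kPa (0 without 1 kPa replicate 1 or 3 or 30 kPa replicate 3 or 4, and 10 without 1 kPa replicate 4). No G2/M or replication gene fell in any of these fits. The 24 listed G2/M genes summed to 1021 to 1389 CPM per library on 1 kPa, 1519 to 1884 CPM on 8 kPa and 1615 to 1974 CPM on 30 kPa, without overlap between 1 kPa and the rest. The replication genes summed to 878 to 1208 CPM, 1226 to 1391 CPM and 1214 to 1323 CPM. The library lowest in LMNB1, LMNB2 and TMPO, 1 kPa replicate 2, was also the lowest in both sums.

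Over the 12 libraries, Pearson's r of log2 levels with the G2/M sum was 0.912 for LMNB1, 0.942 for LMNB2 and 0.934 for TMPO, and 0.905, 0.831 and 0.892 after the group means were removed. With the replication sum r was 0.952 for LMNB1, 0.821 for LMNB2 and 0.979 for TMPO. After the group means were removed it was 0.908 for LMNB1 and 0.947 for TMPO, but only 0.488 for LMNB2. LMNA had r of -0.369 with the G2/M sum over the 12 libraries, but 0.826 after the group means were removed. Within a stiffness, libraries with more G2/M RNA tended to have more LMNA, while the 1 kPa group was highest in mean LMNA and lowest in the G2/M sum. SUN1 had r of -0.837 with the replication sum. LMNB1 and TMPO had r of 0.974 with each other, and 0.958 without group means. All these libraries share their scaling, and the part of cell cycle genes in the lamin values was not tested.

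**Figure D4:**
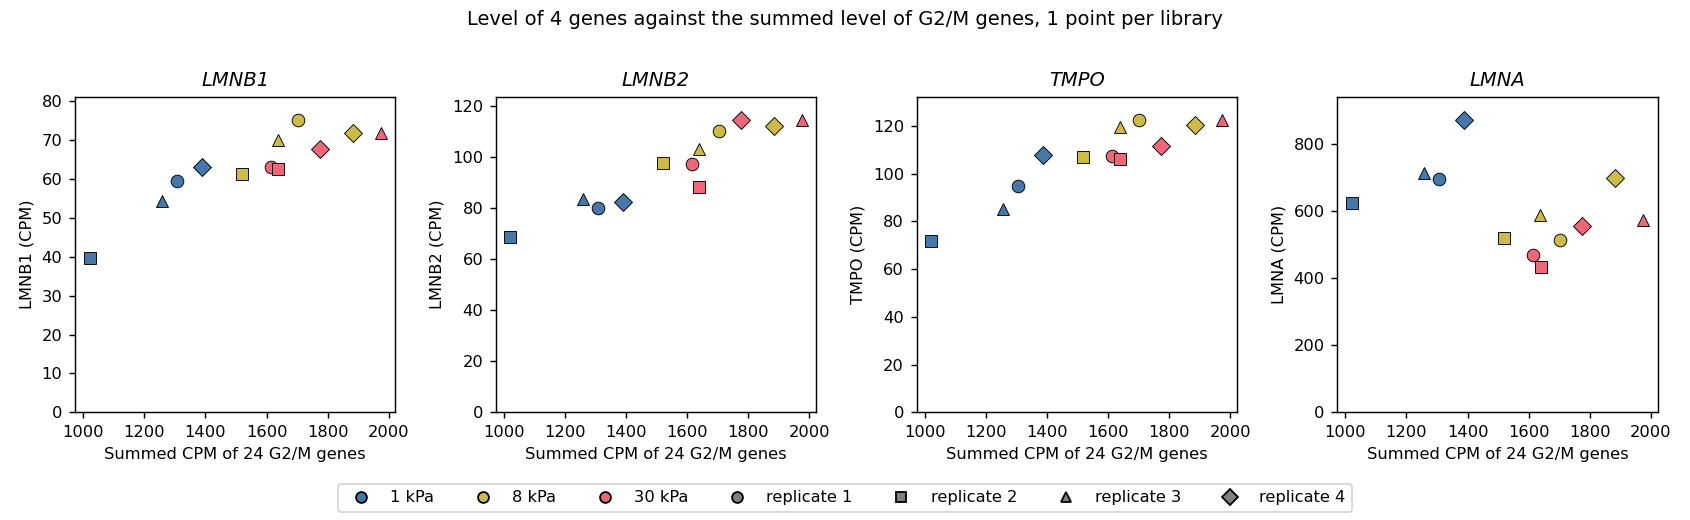
CPM of LMNB1, LMNB2, TMPO and LMNA (vertical axes, from 0) against the summed CPM of 24 G2/M genes (horizontal axes, not from 0), with 1 point per library, colour for stiffness and shape for replicate number. LMNB1, LMNB2 and TMPO climb with the sum from 1 kPa replicate 2 at the lower left, while LMNA on 1 kPa sits at 622 to 870.4 CPM on the left of the panel.

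By the same measure, the tested genes most like each lamin were picked among 11664 genes with a mean of at least 5 CPM. For LMNB1 they were SMC4, a condensin subunit (r = 0.985), GPSM2, a spindle orientation protein (0.978), and ESCO2, a cohesin acetyltransferase (0.977). For LMNB2 they were CKAP2L, a spindle protein (0.980), AHCY, which hydrolyses adenosylhomocysteine (0.978), and DEPDC1B (0.974). For LMNA they were ADGRG6, an adhesion G protein-coupled receptor (0.948), PLEKHA5 (0.937) and PCDH10, a protocadherin (0.933). These are the highest of many correlations over 12 libraries.

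LMNA also varied with the summed mesenchymal neuroblastoma genes. The 15 listed genes summed to 5238 to 5629 CPM on 1 kPa, 4722 to 5482 CPM on 8 kPa and 4462 to 4978 CPM on 30 kPa, and r with LMNA was 0.923 over the 12 libraries and 0.810 without group means. Of the 14 tested, 0 rose and 3 fell at 30 against 1 kPa, namely PRRX1 (-0.35, adjusted p = 0.0144), WWTR1, which encodes TAZ (-0.62, adjusted p = 0.0224), and YAP1 (-0.22, adjusted p = 0.0427), where 1.33% of all genes fell. The 3 became 0 without 30 kPa replicate 3 and 1 without 1 kPa replicate 1 or 30 kPa replicate 2 or 4. Of 14 tested adrenergic genes 5 rose and 0 fell at 8 against 1 kPa, where 8.17% of all genes rose, and SYNE2 had r of 0.955 with their sum. The count of 5 became 0 when 1 kPa replicate 3 or 8 kPa replicate 1 or 3 was omitted. It became 2 for 1 kPa replicate 2, 3 for 8 kPa replicate 2 and 8 for 8 kPa replicate 4. Among fibroblast markers 0 of 9 passed edgeR at 8 against 1 kPa (3 at an unadjusted p under 0.05, 2 with DESeq2), and COL3A1 fell at 30 against 1 kPa, a call lost without 30 kPa replicate 3 or 4. Of 5 tested epithelial, 3 endothelial and 1 immune markers 0 passed edgeR in any comparison. Of the endothelial markers 2 had an unadjusted p under 0.05 at 30 against 8 kPa and 1 at 30 against 1 kPa, DESeq2 called 1 in each, and neither happened for epithelial or immune markers. PECAM1, an endothelial adhesion molecule, was at 5.50 ± 2.74 CPM on 1 kPa, 5.56 ± 2.71 CPM on 8 kPa and 1.64 ± 0.291 CPM on 30 kPa (SD, n = 4 each; edgeR adjusted p = 0.0521 at 30 against 1 kPa). The part of these lists in the lamin and nesprin values was not tested.

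In the shallow library 8 kPa replicate 1, set against the equally shallow 1 kPa libraries, LMNA, LBR and SUN1 were below all 4, and LMNB1, LMNB2, TMPO, SUN2 and SYNE2 were above all 4. EMD and SYNE1 lay within the 1 kPa range. Of all tested genes 60.5% lay outside that range in this library, so 8 of the 10 is read against a high background. With depth class as a term in the fit, edgeR called 0 of the 10 genes and 0 of all genes in each comparison. Only 8 kPa replicate 1 separates depth from stiffness in that fit. At an unadjusted p under 0.05 edgeR then had 6 of the 10 and 4299 of all genes at 8 against 1 kPa, 1 and 2036 at 30 against 8 kPa, and 4 and 1763 at 30 against 1 kPa. For the genes called without the term, the log2 fold changes of that fit are given as values only. At 8 against 1 kPa they were 0.47 for LMNB1, 0.49 for LMNB2, 0.45 for TMPO and -0.42 for SUN1. At 30 against 1 kPa they were -0.74 for LMNA and 0.48 for LMNB2. These values rest on 8 kPa replicate 1 set against the 1 kPa libraries, so they largely repeat the comparison above. The part of depth in them was not tested. Among the deep libraries, the 4 on 30 kPa and the 3 on 8 kPa overlapped for 9 of the 10 genes, and SUN2 was higher in each 30 kPa library, while 13% of all genes did not overlap in 1 direction or the other.

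Other signs of the libraries moved with stiffness too. Spearman's rho of a gene's relative expression with its exon length was 0.0029 to 0.0988 on 1 kPa and -0.0956 to -0.00819 on 8 kPa, without overlap, and -0.114 to 0.0261 on 30 kPa. With an offset for length, the calls at 8 against 1 kPa were lost for SUN1 (log2 fold change -0.23, edgeR adjusted p = 0.0511) and LMNB1 (0.34, adjusted p = 0.0586). Mitochondrial genes took 11.3% to 14.8% of counts on 1 kPa, 10.2% to 11.5% on 8 kPa and 11.7% to 13.2% on 30 kPa, and their part in the values of the 10 genes was not tested.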

How the data were processed

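RNA was sequenced from 12 libraries of SK-N-SH cells, 4 per stiffness, grouped by the labels. The deposited table holds raw counts per Ensembl gene made by the authors. HISAT2 and GRCh38 are named, with no version, per the submitters' processing notes, while the counting tool, annotation, strand setting and filters are not given in the sources used here. Of 60664 genes 42028 had a symbol, and positions and exon lengths (the union of all annotated exons) came from GENCODE release 29.

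Counts were tested with edgeR 4.0.16 in R 4.3.3. Genes were filtered with filterByExpr (17960 kept), scaled by TMM and fitted over all 12 libraries with stiffness as the only term, and the quasi-likelihood F-test was adjusted over all tested genes by Benjamini-Hochberg with a threshold of 0.05. The SE of a log2 fold change is its size divided by the root of F. Ratios within libraries were compared by two-sided exact permutation of log2 ratios (scipy 1.17.1), adjusted over 15 tests, of which those of LMNA to the summed B-type genes are given as values. The script was tested on simulated data.

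Named genes were the 10 members, the 3 genes most correlated with each lamin and up to 3 genes of each list with the smallest adjusted p. HAND2, TH, TYROBP, TIMM13, GET4, GTPBP1 and TMPO-AS1 are named as markers or overlapping genes, and some list genes are not reported here. Members and the 12 lists were chosen with earlier results of these data known. Alternatives were other scalings and filters, DESeq2 1.42.0, limma-voom (limma 3.58.1), depth class, a replicate block, a length offset, the libraries of a pair alone and leaving out each library. The labels do not say whether libraries came from separate cultures, so p-values measure the spread between these libraries, which may be technical. No columns of the table were identical.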

Additional observations from a re-analysis of the deposited data

Results flagged for a closer look

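In the 45 groups of 4 libraries examined, 1 held a library far from the other 3. TMPO in 8 kPa replicate 2 was at 107 CPM, while the other 8 kPa libraries lay at 119.7 to 122 CPM, a gap of 0.836 of the whole range on the log2 CPM scale, on which the gaps were measured. This is just past Dixon's 95% critical value for 4 libraries, and chance alone would mark about 1 in 20 groups.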

How the results depend on the processing

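None of the 10 genes changed direction in a comparison where it was called. The 4 genes called at 8 against 1 kPa became 0 with the depth class as a term, 2 with the length offset and 1, LMNB2, when only the pair's 8 libraries were fitted, and 1 to 4 when 1 library was left out. The 2 called at 30 against 1 kPa became 1 with library size alone, 4 with no filter, 4 with DESeq2, 0 with the depth class as a term and 1 with only the pair's 8 libraries, and 0 to 3 when 1 library was left out. The 4 called across all stiffnesses became 1 with library size alone and 0 with the depth class, and 0 to 6 when 1 library was left out. Calls among all tested genes also moved with the setting, and were 0 as well with the depth class. At 30 against 8 kPa the count among the 10 was 0 in every setting except without 8 kPa replicate 4, where it was 1 (LBR). With the replicate number as a block the counts were 5 at 8 against 1 kPa, 4 at 30 against 1 kPa and 5 across all stiffnesses. Calls among all tested genes rose with the block as well. Libraries with the same number had deviations that correlated at -0.134 to 0.369 (median 0.093), over 0.1 in 6 of 12 pairs. Those with different numbers correlated at -0.299 to 0.241 (median -0.036), over 0.1 in 6 of 36 pairs. Of the 12 libraries, 6 were closest to their own number. Libraries sharing a number thus tended to be more alike, which the main fit, with stiffness as its only term, does not use. LMNA at 8 against 1 kPa was called with the block (adjusted p = 0.00741), with no filter (0.038) and without 8 kPa replicate 4 (0.024). DESeq2 called more genes of the nuclear envelope lists, with 5 partners where edgeR called 3 and 4 other LINC genes where edgeR called 1 at 8 against 1 kPa, and 3 pore subunits where edgeR called 1 at 30 against 1 kPa. It also called 10 DNA replication genes there, against 4, 6 adrenergic genes, against 2, and 5 mesenchymal genes at 8 against 1 kPa, against 1. Among all tested genes, too, DESeq2 called more than the 2472 of edgeR at 8 against 1 kPa and its 437 at 30 against 1 kPa. The higher counts can therefore not be read as particular to these lists. The lamin ratios kept their direction in every setting at 8 and 30 against 1 kPa, with log2 differences of LMNA to LMNB1 between -0.78 and -0.61 at 8 kPa without 1 library. Sign flips over the replicate numbers cannot pass with 4 pairs. Depth limits SUN2 most, at 175 counts in its poorest library.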
